A study of Mus musculus with 26 samples.

Results

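Bile acid handling in mouse liver was followed through 10 genes, chosen by symbol from 22322 symbols in the tables: the enzymes Cyp7a1, Cyp8b1, Cyp27a1, Cyp7b1, Hsd3b7 and Akr1d1, the transporters Abcb11 and Slc10a1, and the nuclear receptors Nr1h4 and Nr0b2. Each symbol was represented by its best expressed transcript, and all 10 genes passed the filter on low values in both experiments. Polyadenylated RNA had been sequenced from 20 livers of 8-week-old C57BL/6 mice kept in darkness for 2 days, and levels are given in RPKM, a read density that divides by transcript length and library depth. In the Bmal1 experiment, livers labelled Bmal1 knockout, stated to be liver-specific, and wild-type control livers were collected at circadian time 0 (CT0, when the lights would have come on) and CT12, with 3 mice per group. In the Nr1d1 experiment, livers labelled Nr1d1 knockout and wild-type controls were collected at the same times, with 2 mice per group. Bmal1 (symbol Arntl) encodes an activator of the circadian clock, and Nr1d1 encodes the clock repressor REV-ERB alpha. The labels name neither the Cre driver of the Bmal1 deletion nor the design of the Nr1d1 allele.

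Bile acids are made from cholesterol in hepatocytes. CYP7A1 opens the classical pathway and sets its rate, CYP8B1 adds the hydroxyl group that distinguishes cholic acid, CYP27A1 and CYP7B1 act in the acidic pathway, and HSD3B7 and AKR1D1 modify the sterol ring. The finished bile acids leave the hepatocyte through the bile salt export pump ABCB11 and return from the blood through the uptake carrier SLC10A1. The bile acid receptor FXR, encoded by Nr1h4, raises expression of SHP, encoded by Nr0b2, which represses the synthesis enzymes, and bile acid synthesis in liver is known to follow a daily rhythm.

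The promoters of Hsd3b7 and Abcb11, the 2 members whose change over time differed between genotypes by the test in the Bmal1 experiment, and that of Nr0b2, which carried the clock motif searched for, are shown as reference sequence from RefSeq (build GRCm38.p6, 250 bases before to 50 after the annotated start, on the strand of the gene). Capitals mark the motifs, which were searched on both strands: the E-box CACGTG, the receptor hexamer AGGTCA, to which nuclear receptors of the REV-ERB, ROR and FXR kind bind and which reads TGACCT on the opposite strand, and the D-box TTATGTAA. None of the matches found in the member windows overlapped. Hsd3b7 lies at chr7:127800359-127800658 on the plus strand, Abcb11 at chr2:69342567-69342866 on the minus strand, and Nr0b2 at chr4:133553126-133553425 on the plus strand.
Hsd3b7: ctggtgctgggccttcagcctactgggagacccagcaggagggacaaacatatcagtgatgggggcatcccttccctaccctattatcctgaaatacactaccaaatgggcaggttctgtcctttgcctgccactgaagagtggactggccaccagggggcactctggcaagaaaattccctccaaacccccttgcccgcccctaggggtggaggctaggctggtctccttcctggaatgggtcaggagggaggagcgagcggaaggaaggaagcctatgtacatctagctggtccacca
Abcb11: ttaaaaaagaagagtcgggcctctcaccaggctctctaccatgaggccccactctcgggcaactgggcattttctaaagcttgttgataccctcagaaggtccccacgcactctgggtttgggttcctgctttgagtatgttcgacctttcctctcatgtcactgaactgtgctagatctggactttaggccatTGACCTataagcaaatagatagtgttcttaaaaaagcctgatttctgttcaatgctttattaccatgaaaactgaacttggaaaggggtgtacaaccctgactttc
Nr0b2: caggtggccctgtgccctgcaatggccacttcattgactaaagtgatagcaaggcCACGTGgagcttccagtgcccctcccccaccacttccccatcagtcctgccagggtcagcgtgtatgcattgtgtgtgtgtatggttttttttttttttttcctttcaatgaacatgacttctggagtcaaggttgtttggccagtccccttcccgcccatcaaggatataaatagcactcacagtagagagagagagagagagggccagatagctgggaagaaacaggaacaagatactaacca
The Hsd3b7 window held none of these letters, Abcb11 held 1 receptor hexamer 56 bases before the start, and Nr0b2 held 1 E-box 195 bases before the start. Windows were found for 8 of the 10 genes, 9 windows in all. Among the others, Akr1d1 held 2 hexamers (232 and 210 bases before the start), Nr1h4 held 1 (214 bases before), and 1 of the 2 Slc10a1 windows held 1 (87 bases before). The windows of Cyp8b1 and Cyp27a1 held none of the 3 motifs. Over 32851 RefSeq promoter windows of the same length, 7.15% held the E-box, 16.3% the receptor hexamer and 0.938% the D-box, so a match here is a description of the window only.

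In the Bmal1 libraries the gene values summed to 432657 to 479396 RPKM, and whole reads recovered from the values gave 92 to 20165 reads per library for the 10 genes, where an unknown whole-number multiple may apply to a gene in every library alike. Arntl read 16.3, 15.7 and 15.7 RPKM in control livers at CT0 against 5.91, 5.73 and 7.45 in livers labelled Bmal1 knockout. At CT12 it read 1.26, 0.68 and 1.21 in controls against 4.37, 3.59 and 4.01 in the labelled knockout livers, so its level was lower at one time and higher at the other. A value over the whole transcript cannot show a partial deletion, and the groups are called by their labels throughout. Albumin took 6.10% to 8.06% of summed RPKM in the 6 control libraries and 3.21% to 4.74% in the 6 labelled knockout libraries. In bulk liver, fewer cells of a type and less RNA per cell cannot be told apart.

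In control livers the members spanned a wide range of levels. At CT0, Hsd3b7 had the highest mean, 352.6 RPKM, followed by Cyp27a1 (233), Slc10a1 (217) and Abcb11 (205), whose neighbours in this order overlapped in range, and then Akr1d1 (119) and Cyp8b1 (86.7), which overlapped as well. Nr1h4 followed at 49.7 RPKM, and Cyp7b1 (19.2), Cyp7a1 (16.8) and Nr0b2 (16.4) were lowest, again with overlapping neighbours. At CT12 Slc10a1 (275 RPKM) and Cyp27a1 (230) led, and Hsd3b7 (115) lay below Akr1d1 (128), with overlapping ranges.

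**Figure D1:**
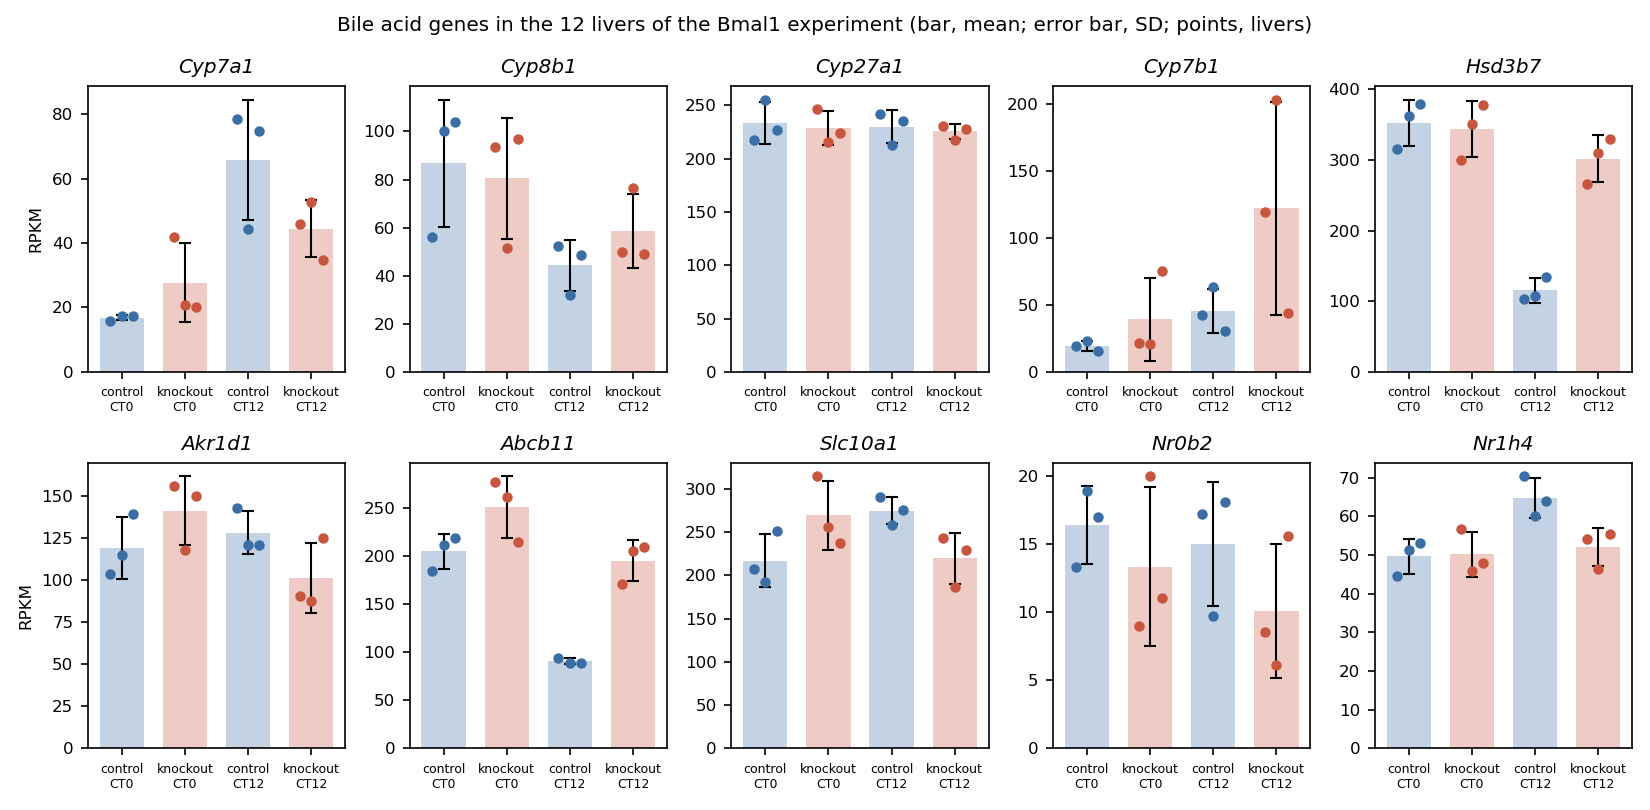
Level in RPKM of the 10 bile acid genes in the 12 livers of the Bmal1 experiment, 1 panel per gene; bars are group means, error bars the SD of 3 livers, points the single livers. Hsd3b7 and Abcb11 were low in the control CT12 livers alone among the 4 groups, whereas Cyp27a1 stayed between 213 and 255 RPKM in all 12 livers.

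The first question was how the genes differed between the 2 times in control livers. Of the 10 genes, 4 passed the test, 2 higher at CT12 (Cyp7a1 and Nr1h4) and 2 lower (Hsd3b7 and Abcb11), where 10.8% of the 11439 genes tested passed, 3.4% higher and 7.43% lower. At an unadjusted p under 0.05 there were 6 members, against 26.4% of all genes. The median log2 difference was 0.045 over the members and -0.079 over all genes tested. With TMM scaling the split of all calls moved from 31.4% to 55.3% higher, while all 4 members kept their call.

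Cyp7a1, the enzyme that limits the classical pathway, read 15.9, 17.3 and 17.3 RPKM at CT0 and 78.6, 44.5 and 74.8 at CT12 in control livers. Every CT12 liver lay above every CT0 liver, and the level rose 3.72-fold (log2 difference 1.90 ± 0.28 SE; limma, adjusted p = 0.00119). In livers labelled Bmal1 knockout it read 42.0, 20.8 and 20.3 RPKM at CT0 and 46.0, 52.6 and 34.9 at CT12. Those groups overlapped through replicate 1 at CT0, and the log2 difference of 0.74 ± 0.28 SE did not pass the test (limma, adjusted p = 0.174). Without that library the difference was 1.08 and passed (limma, adjusted p = 0.0476). The difference between the 2 time courses was -1.16 ± 0.39 SE on the log2 scale and was not called (limma, adjusted p = 0.235).

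Hsd3b7, which encodes the 3-beta-hydroxysteroid dehydrogenase of bile acid synthesis, read 316, 363 and 379 RPKM in control livers at CT0 and 103, 108 and 135 at CT12. The 2 groups did not overlap, and the level fell 3.07-fold (log2 difference -1.62 ± 0.13 SE; limma, adjusted p = 1.37e-05). In livers labelled Bmal1 knockout it read 300.4, 351 and 378 RPKM at CT0 and 266, 310 and 330 at CT12, so the ranges overlapped. The log2 difference there was -0.18 ± 0.13 SE and was not called (limma, adjusted p = 0.472).

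Abcb11, the export pump, was lowest in the control CT12 livers too. It read 184, 212 and 219 RPKM in control livers at CT0 and 93.9, 88.9 and 88.4 at CT12. These did not overlap, and the level fell 2.25-fold (log2 difference -1.17 ± 0.11 SE; limma, adjusted p = 6.33e-05). Livers labelled Bmal1 knockout read 277, 261 and 215 RPKM at CT0 and 171, 205 and 209 at CT12. The CT12 livers lay below the CT0 livers there too, without overlap, but the log2 difference of -0.36 ± 0.11 SE was not called (limma, adjusted p = 0.119).

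Nr1h4, the gene of the bile acid receptor, read 44.6, 51.4 and 53.2 RPKM at CT0 and 70.4, 60.1 and 63.9 at CT12 in control livers. The groups did not overlap, and the 1.301-fold rise passed the test narrowly (log2 difference 0.38 ± 0.11 SE; limma, adjusted p = 0.049). The call was lost when any 1 of the 6 control libraries was left out, and without labelled knockout replicate 2 or 3 at CT0 or replicate 1 or 3 at CT12 (limma, adjusted p from 0.0513 to 0.155). It was also lost with a replicate block (limma, adjusted p = 0.0553), without the filter on low values (0.0654) and in a fit to the compared groups alone (0.0532).

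The next question was how genotype changed the members at each time. At CT12, 2 of the 10 genes passed, Hsd3b7 and Abcb11, both higher in livers labelled Bmal1 knockout, where 9.68% of genes tested passed, 6.46% higher and 3.22% lower. At an unadjusted p under 0.05 there were 6 members, against 24% of all genes. This comparison and the one over time in controls share the 3 control livers at CT12, so their values for Hsd3b7 and Abcb11 are not independent. The median log2 difference was -0.173 over the members and 0.088 over all genes. With TMM scaling the split of all calls moved from 66.8% to 46.7% higher, and both members kept their call. At CT0 no member passed, where 1.62% of genes tested did by limma, 0.909% higher and 0.708% lower. Counted at an unadjusted p under 0.05, 3 members differed at CT0 (Cyp7a1, Abcb11 and Slc10a1, each with a higher mean in the labelled knockout), against 13.6% of all genes.

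Hsd3b7 was 2.62-fold higher in livers labelled Bmal1 knockout at CT12, where the 266 to 330 RPKM of those livers lay above the 103 to 135 of the controls (log2 difference 1.39 ± 0.13 SE; limma, adjusted p = 4.1e-05). At CT0 the 2 genotypes overlapped, with a log2 difference of -0.04 ± 0.13 SE (limma, adjusted p = 0.936). Its 5 transcripts gave log2 differences of 1.36 to 1.41 at CT12. Abcb11 was 2.14-fold higher at CT12, with 171 to 209 RPKM against 88.4 to 93.9 (log2 difference 1.10 ± 0.11 SE; limma, adjusted p = 8.15e-05). At CT0 its difference was 0.29 ± 0.11 SE on the log2 scale and the lowest labelled knockout liver, at 215 RPKM, lay under the highest control at 219 (limma, adjusted p = 0.273). The 3 Abcb11 transcripts each gave 1.10 at CT12.

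The difference between the genotypes in their change from CT0 to CT12 was tested directly. It passed for 2 of the 10 members, where 1.31% of genes tested passed, 0.97% with a more positive change in the labelled knockout and 0.341% with a more negative one. At an unadjusted p under 0.05 there were 5 members, against 11.9% of all genes. The split of all such calls was 74% positive as deposited and 58.1% with TMM scaling. The term was 1.43 ± 0.18 SE for Hsd3b7 (limma, adjusted p = 0.00238) and 0.81 ± 0.16 SE for Abcb11 (limma, adjusted p = 0.0308), on the log2 scale. Hsd3b7 kept its call under all 19 alternatives run. Abcb11 lost its call with a replicate block (limma, adjusted p = 0.0625), without the filter on low values (0.0516), and when any of 8 single libraries was left out: control replicate 2 or 3 at CT0, control replicate 1, 2 or 3 at CT12, and labelled knockout replicate 3 at CT0 and replicate 2 or 3 at CT12 (0.065 to 0.0913).

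Of 8 clock factors, those called between genotypes at CT12 are given by value, beside Arntl above and Nr1d1. The repressor gene Nr1d2 differed by -1.11 at CT0 and -2.07 at CT12 on the log2 scale. Nr1d1 differed by -1.94 at CT0 and -0.56 at CT12, and like the factors not named it was not called at CT12. The D-box activator genes Dbp and Tef differed by -2.10 and -0.96 at CT12, and by 0.52 and 0.98 at CT0. At CT0 the differences of Nr1d1, Nr1d2 and Tef were called (limma, adjusted p = 0.0252, 0.0416 and 0.000962). That of Dbp was not (limma, adjusted p = 0.484).

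**Figure D2:**
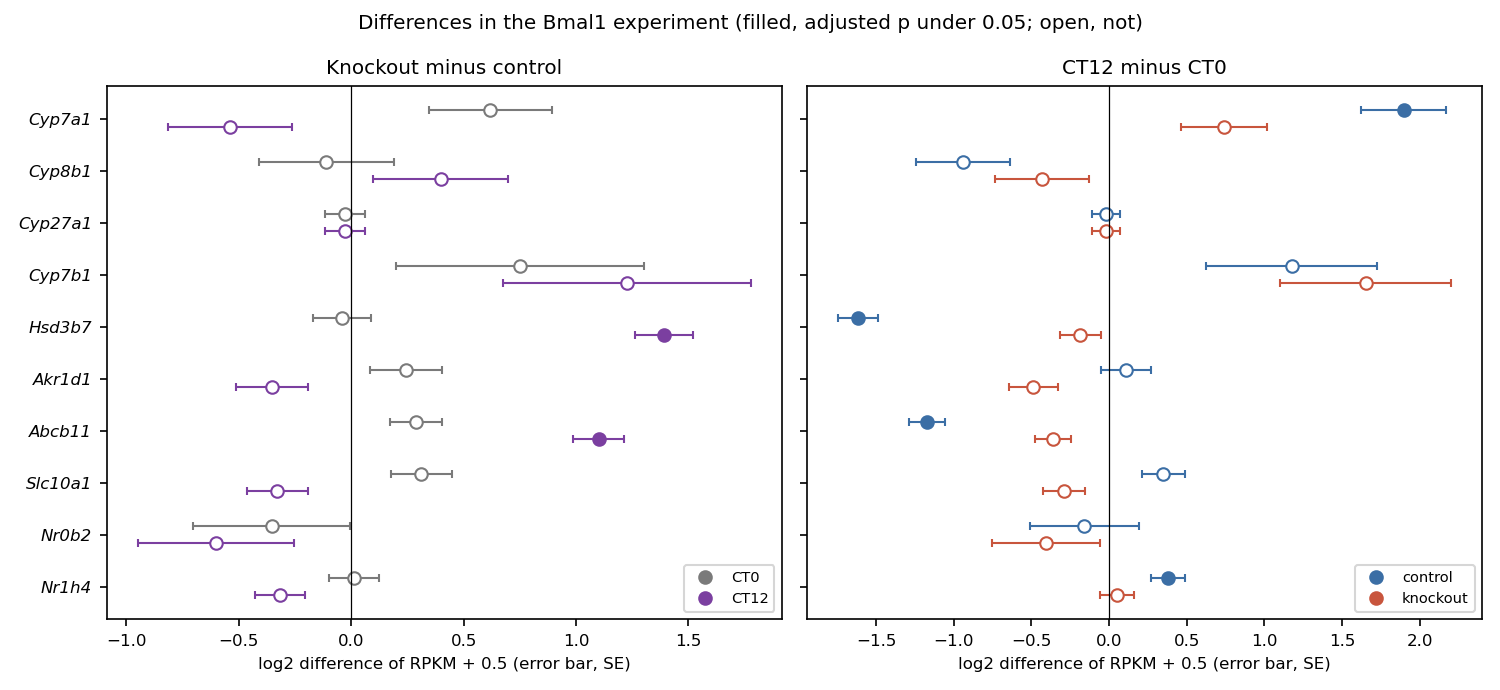
Log2 difference of RPKM + 0.5 for the 10 genes in the Bmal1 experiment, between genotypes at each time (left) and between times in each genotype (right); points are limma estimates, error bars their SE, filled where the adjusted p was under 0.05. Hsd3b7 stood at 1.39 between genotypes at CT12 and at -0.04 at CT0.

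Markers of other liver cells differed between the same groups. At CT12 the summed level of 7 cholangiocyte markers was 44.0 to 72.6 RPKM in control livers and 93.9 to 129 in livers labelled Bmal1 knockout (of 5 tested, 2 higher and 1 lower). The 7 neutrophil markers summed to 19.3 to 29.1 against 48.6 to 131 (2 higher), 6 erythroid markers to 107 to 190 against 246 to 307 (2 of 5 tested higher), and 6 stellate markers to 94.0 to 110 against 118 to 153 (none called). The 8 hepatocyte markers summed to 38730 to 47286 in controls and 26695 to 30218 in labelled knockouts (1 lower). Their median log2 difference was 0.058, so the lower sum, in which the most abundant markers weigh most, does not describe the whole list. Kupffer cell, endothelial, pericentral and periportal sums overlapped, with 1 pericentral marker called higher. No marker was at 0 throughout a group. At CT0 the cholangiocyte sum was 65.4 to 79.6 RPKM in controls and 107 to 154 in labelled knockouts (of 5 tested, 1 higher). The hepatocyte sum there was 46201 to 51401 against 30436 to 35325 (1 lower, median log2 difference -0.096). Sums of the other lists overlapped at CT0. The part of these markers in the Hsd3b7 and Abcb11 differences was not tested.

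Between the times in control livers, the sums of 6 endothelial markers (86.6 to 107 RPKM at CT0, 58.0 to 68.0 at CT12), 7 neutrophil markers (69.9 to 223, then 19.3 to 29.1), 6 stellate markers (128 to 178, then 94.0 to 110) and 7 Kupffer cell markers (124 to 168, then 80.8 to 121) were lower at CT12. Those of 6 pericentral (2866 to 3557, then 4380 to 5186) and 5 periportal markers (1010 to 1059, then 1570 to 1853) were higher. Called lower were 4 neutrophil, 1 endothelial and 1 stellate marker, where 7.43% of all genes tested were lower. Of the pericentral markers 1 was called higher and 1 lower, and of the periportal markers 2 higher and 1 lower. The median log2 differences of these 2 lists were 0.062 and -0.002, so their higher sums do not describe the whole lists. The part of all these markers in the time differences of the members was not tested either.

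The other synthesis enzymes showed no called difference in the Bmal1 experiment. Cyp8b1, the sterol 12-alpha-hydroxylase, read 56.2, 100.0 and 104 RPKM at CT0 and 52.3, 32.1 and 48.5 at CT12 in control livers. The CT12 livers lay just below the lowest CT0 liver, and the log2 difference of -0.94 ± 0.30 SE missed the threshold (limma, adjusted p = 0.0673). It passed without control replicate 1 at CT0 (log2 difference -1.22; limma, adjusted p = 0.0313) or without labelled knockout replicate 2 at CT0 (0.0423). In livers labelled Bmal1 knockout Cyp8b1 read 93.4, 51.4 and 96.7 RPKM at CT0 and 50.04, 76.5 and 49.2 at CT12, with overlap.

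Cyp7b1, the oxysterol 7-alpha-hydroxylase, had the widest spread of the members. It read 19.3, 22.8 and 15.5 RPKM in control livers at CT0 and 42.4, 63.3 and 30.5 at CT12. Livers labelled Bmal1 knockout read 21.4, 20.7 and 75.2 at CT0 and 119, 203 and 44.2 at CT12. Control livers did not overlap between times, but the spread within the labelled knockout groups entered the shared error, and the log2 difference in controls of 1.18 ± 0.55 SE was not called (limma, adjusted p = 0.199). A fit to the control groups alone called it (limma, adjusted p = 0.0267). The genotype difference at CT12 was 1.23 ± 0.55 SE on the log2 scale and was not called (limma, adjusted p = 0.199). A small nuclear RNA gene overlaps Cyp7b1 in RefSeq, and the counting is not stated to use strand.

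Cyp27a1, the mitochondrial sterol 27-hydroxylase, was the steadiest member, with group means between 225 and 233 RPKM and log2 differences of -0.03 to -0.02 in the 4 comparisons of groups, each with an SE of 0.09. Akr1d1, the 5-beta-reductase, read 103, 115 and 139 RPKM in controls at CT0, 143, 121 and 120 in controls at CT12, 156, 118 and 149 in labelled knockouts at CT0, and 90.4, 87.6 and 125 in labelled knockouts at CT12. Its lowest 2 values were both in the last group, which overlapped each of the others, and no comparison was called (the log2 difference between times in the labelled knockout was -0.49 ± 0.16 SE; limma, adjusted p = 0.129). A long noncoding RNA gene and a pseudogene overlap Akr1d1 in RefSeq.

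Slc10a1, the uptake carrier, read 208, 192 and 251 RPKM in control livers at CT0 and 291, 259 and 276 at CT12, and 315, 256 and 238 in labelled knockouts at CT0 and 243, 187 and 230 at CT12. Its mean was higher at CT12 than at CT0 in controls and lower in labelled knockouts. The term for the difference between these time courses, -0.64 ± 0.19 SE on the log2 scale, was not called (limma, adjusted p = 0.174), nor was any difference between 2 groups. Nr0b2, the repressor SHP, was the scarcest member by mean at CT0. It read 13.3, 18.9 and 17.0 RPKM in controls at CT0, 17.2, 9.75 and 18.05 at CT12, and 9.01, 19.98 and 11.02 and then 8.5, 6.1 and 15.6 in labelled knockouts. All 4 groups overlapped, and no comparison was called. For its receptor partner Nr1h4, the labelled knockout livers at CT12 (54.0, 46.3 and 55.5 RPKM) lay below the control livers without overlap. That log2 difference was -0.32 ± 0.11 SE and not called as deposited (limma, adjusted p = 0.102), and -0.42 and called with TMM scaling (0.0296).

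Beyond the members, 42 further genes of bile acid metabolism were counted, of which 39 passed the filter in the Bmal1 experiment. At CT12, 4 were higher and 5 lower in livers labelled Bmal1 knockout, where 9.68% of all genes tested passed (6.46% higher, 3.22% lower), and the median log2 difference was 0.060 against 0.088 over all genes. At CT0, 2 were higher and none lower, where 1.62% of all genes passed (medians -0.028 and 0.011). Of 11 other synthesis enzymes tested, 3 were lower at CT12. Akr1c14, a 3-alpha-hydroxysteroid dehydrogenase, read 255 to 319 RPKM in controls and 149 to 191 in labelled knockouts (log2 difference -0.75 ± 0.12 SE; limma, adjusted p = 0.00239). The oxysterol hydroxylase gene Cyp39a1 differed by -0.88 ± 0.20 SE and the peroxisomal side-chain enzyme Hsd17b4 by -0.38 ± 0.11 SE.

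Among 5 genes of hydroxylation and sulfation, 2 were higher at CT12, where 6.46% of all genes tested were. Cyp2c70, which makes the muricholic acids of mice, read 270 to 345 RPKM in controls and 415 to 512 in labelled knockouts (log2 difference 0.66 ± 0.17 SE; limma, adjusted p = 0.0323). Cyp2b10, a target of xenobiotic receptors, was higher at both times, by 2.85 ± 0.56 SE at CT0 and 2.45 ± 0.56 SE at CT12 on the log2 scale. Its 12 livers did not overlap between genotypes at either time.

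Of 11 other transporters tested, 1 was higher and 2 lower at CT12, where 6.46% of all genes tested were higher and 3.22% lower. The organic anion carrier Slco1a4 was higher at CT0 (log2 difference 0.88 ± 0.18 SE) and at CT12 (0.72 ± 0.18 SE), its relative Slco1a1 was lower at CT12 (-0.64 ± 0.17 SE), and so was the canalicular conjugate pump Abcc2 (-0.36 ± 0.09 SE). Among 12 regulators 1 was called at CT12, a share near the 9.68% of all genes tested. It was Fgfr4, the hepatocyte receptor for the ileal hormone FGF15. Fgfr4 read 4.63 to 6.46 RPKM in controls and 7.99 to 12.8 in labelled knockouts (log2 difference 0.89 ± 0.18 SE; limma, adjusted p = 0.00945). Of these 11 calls, those of Akr1c14 and Fgfr4 were kept under all 20 alternatives, and each of the other 9 was lost in at least 2 of the fits that left out 1 library (limma, adjusted p up to 0.167 over all alternatives). The Cyp2c70 and Slco1a4 calls at CT12 were also lost with TMM scaling.

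**Figure D3:**
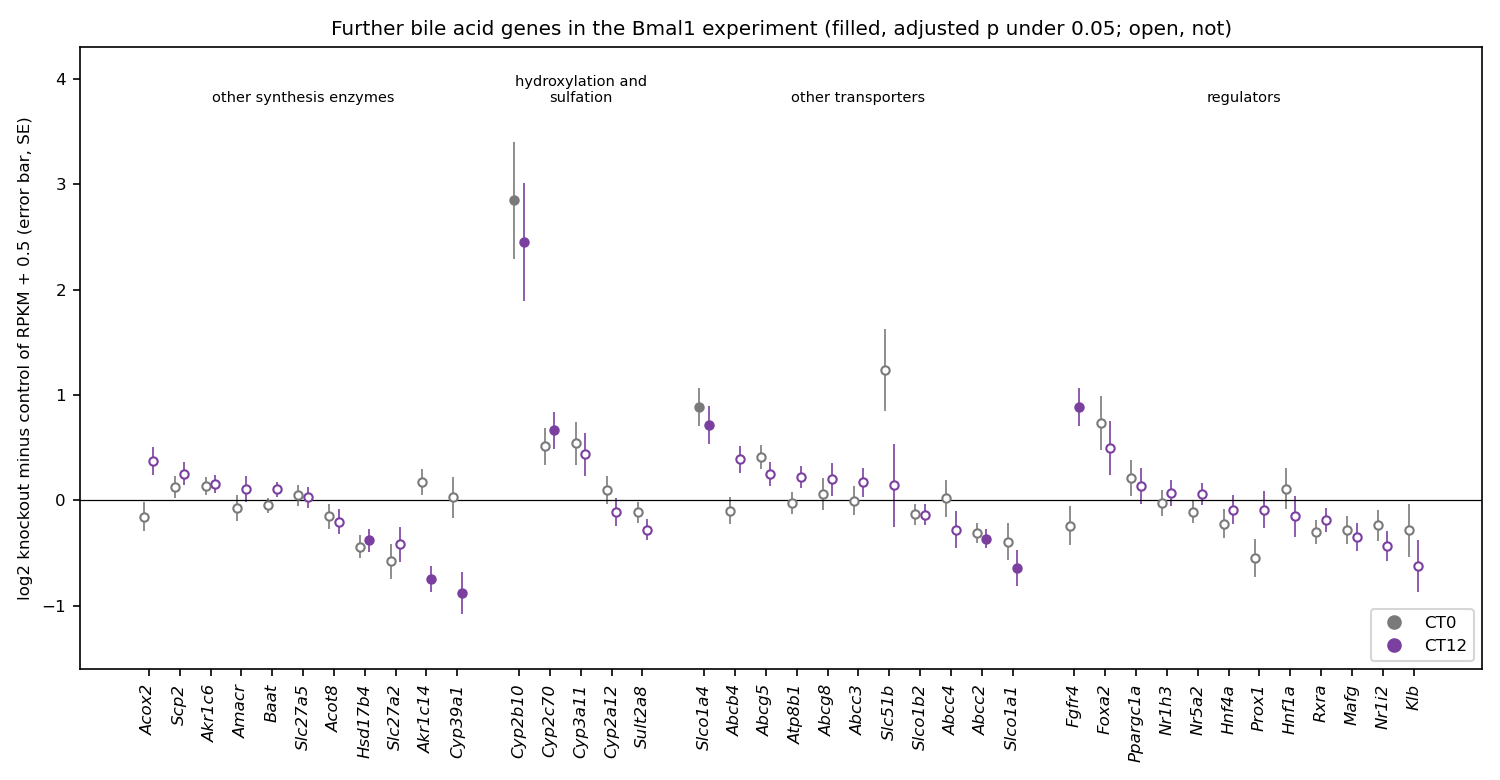
Log2 difference of RPKM + 0.5 between livers labelled Bmal1 knockout and control livers for the 39 further bile acid genes tested, ordered within 4 groups by the CT12 value; grey is CT0, purple CT12, error bars are SE and filled points had an adjusted p under 0.05. Cyp2b10 (2.85 and 2.45) stood above the other genes at both times.

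Over time in control livers, 5 of the 39 genes were higher at CT12 and none lower, with a median of 0.092 against -0.079 over all genes. Of all genes tested, 10.8% passed, 3.4% higher and 7.43% lower, a split that turned with TMM scaling (from 31.4% to 55.3% of calls higher). These were Akr1c14 (log2 difference 0.88 ± 0.12 SE), the sterol exporter Abcg5 (0.63 ± 0.12 SE), the xenobiotic receptor gene Nr1i2 (0.64 ± 0.15 SE), the uptake carrier Slco1b2 (0.36 ± 0.10 SE) and Abcc2 (0.35 ± 0.09 SE). The first 2 were kept under every alternative run, and each of the others was lost without any of at least 4 single libraries (limma, adjusted p up to 0.137 over all alternatives). In livers labelled Bmal1 knockout, 0 of the 10 members and 1 of the 39 passed by limma, against 1.9% of genes tested, 0.909% higher and 0.988% lower. At an unadjusted p under 0.05 there were 4 members, against 19.2% of all genes. The 1 gene was the phospholipid exporter Abcb4 (log2 difference 0.67 ± 0.13 SE; limma, adjusted p = 0.0264), which lost its call without replicate 1 or 3 at CT0 or replicate 2 or 3 at CT12, and in a fit to the compared groups alone. Akr1c14 alone had a called difference between the 2 time courses (-0.92 ± 0.17 SE; limma, adjusted p = 0.0252), where 1.31% of all genes tested passed. That call was lost without any of 7 single libraries (limma, adjusted p up to 0.0722).

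The Nr1d1 experiment was read within each replicate, because replicate 2 is labelled paired-end and its values summed to 2099302 to 2211054 RPKM against 588418 to 875424 in replicate 1. Nr1d1 itself read 0.374, 3.45, 6.10 and 11.1 RPKM in replicate 1 (control CT0, control CT12, labelled knockout CT0, labelled knockout CT12) and 22.0, 33.4, 32.9 and 28.4 in replicate 2. It was higher in the labelled knockout in 3 of the 4 comparisons within a replicate and time. This goes against the label as a level, and a value over the whole transcript does not show a partial deletion, so every direction given for this experiment rests on the labels. Arntl, which REV-ERB alpha is known to repress, read 0.597 and 1.298 RPKM in the control CT12 livers and 8.00 and 19.3 in the labelled knockouts (log2 difference 3.21 ± 0.31 SE; limma, adjusted p = 0.0395). That call was lost without the filter on low values, with sums over transcripts, with no replicate block, and without the control of replicate 1 or the labelled knockout of replicate 1 or 2 at CT12, where limma called 0 genes.

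Libraries of this experiment also stood apart in another way. The Y-linked transcripts Ddx3y, Uty, Eif2s3y and Kdm5d were measured in all 12 Bmal1 livers (Ddx3y 16.0 to 30.1 RPKM) but in only 2 of the 8 Nr1d1 livers, the control and the labelled knockout of replicate 1 at CT0 (Ddx3y 5.39 and 5.64). In the other 6 each of these 4 transcripts was at or under 0.146 RPKM, and the labels give no sex. Genotypes within a replicate and time matched in these 4 transcripts, whereas in replicate 1 time and the presence of Y-linked transcripts cannot be told apart. Liver genes known to differ between the sexes did not match everywhere. Cyp4a12a, higher in males, read 157 RPKM in the labelled knockout of replicate 2 at CT0 and 2.23 in its control, and Cyp3a41a, higher in females, read 462 and 5451. In replicate 1 at CT12, Cyp3a41a read 35.0 RPKM in the labelled knockout and 1817 in the control. Other such genes lay closer in that pair: Mup20 read 504 and 408, Cyp2b9 110 and 179, and Cyp4a12a was low in both (4.18 and 0.634). Their part in the genotype differences of the members was not tested. The labelled knockout of replicate 2 at CT0 differed from the 3 other livers of its replicate in markers of blood cells, with a summed neutrophil level of 979 RPKM against 33.2 to 86.4 and an erythroid sum of 11065 against 2869 to 4810. In the control groups, the neutrophil markers Ltf, Camp and Ngp were listed at 0 at CT0, and Camp at CT12. No marker of the 9 lists was called in any comparison of this experiment.

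No member passed the test in any of the 5 comparisons of the Nr1d1 experiment. By limma, 0% of the 12738 genes tested passed for genotype at CT0, 0.0393% for genotype at CT12 (0.0314% higher, 0.00785% lower), 0.353% for time in controls (0.173% higher, 0.181% lower), 0.055% for time in labelled knockouts and 0% for the difference between the time courses. At an unadjusted p under 0.05 the members counted 1, 2, 1, 3 and 2 of 10 in these comparisons, against 4.51%, 4.55%, 8.09%, 14.4% and 4.22% of all genes. The median log2 difference of the members was -0.341 for genotype at CT0 (all genes -0.046) and 0.049 at CT12 (0.035). Fits to the compared groups alone, which leave 1 pair of replicates to estimate the error, called Cyp8b1 over time in controls and Cyp7a1, Cyp7b1 and Nr0b2 over time in labelled knockouts.

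**Figure D4:**
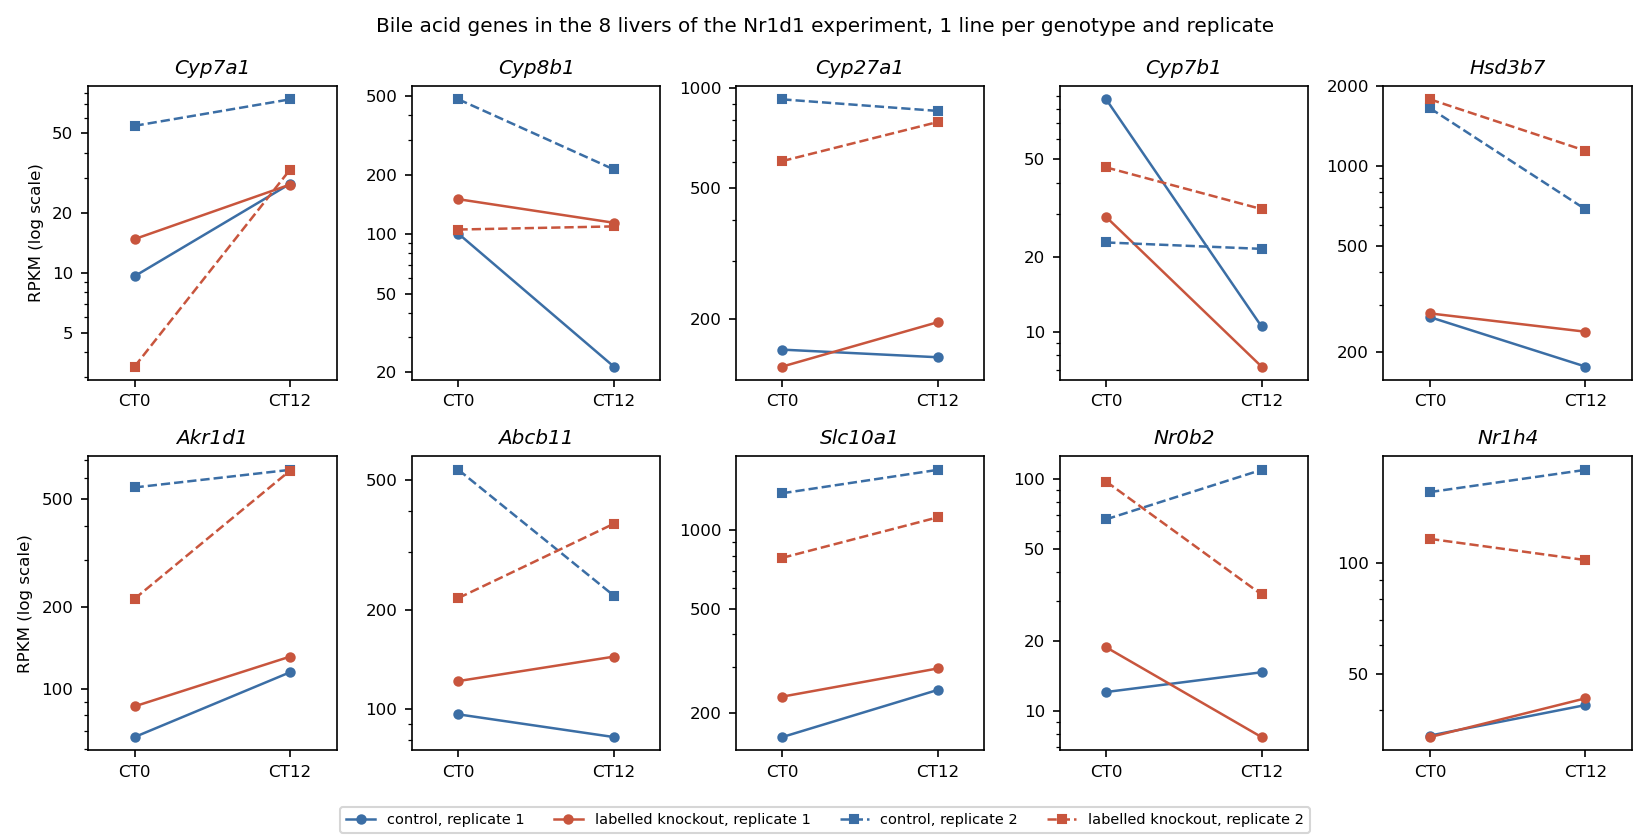
Level in RPKM on a log axis of the 10 bile acid genes at CT0 and CT12 in the Nr1d1 experiment, 1 panel per gene; each line joins the 2 livers of a genotype (blue control, red labelled knockout) in replicate 1 (solid, circles) or replicate 2 (dashed, squares). The red Nr0b2 lines go down in both replicates and the blue ones up.

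Nr0b2 kept its sign across both replicates in each genotype and time comparison, as did Hsd3b7. It read 12.1 and 14.7 RPKM at CT0 and CT12 in the control livers of replicate 1, and 18.9 and 7.7 in the labelled knockouts. In replicate 2 the controls read 67.3 and 110 and the labelled knockouts 97.8 and 31.9. In both replicates the labelled knockout was above the control at CT0 (log2 differences 0.62 and 0.54) and below it at CT12 (-0.89 and -1.77). The fitted difference at CT12 was -1.33 ± 0.23 SE (limma, adjusted p = 0.222), and the difference between the time courses was -1.91 ± 0.33 SE (limma, adjusted p = 0.377), neither of them called.

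Hsd3b7 and Abcb11 were above the control at CT12 in both replicates of the labelled Nr1d1 knockout. Hsd3b7 read 176 RPKM in the control and 238 in the labelled knockout of replicate 1, and 687 and 1141 in replicate 2 (log2 differences 0.44 and 0.73). At CT0 the genotypes lay close, at 270 and 278 RPKM in replicate 1 and 1649 and 1782 in replicate 2. The fitted difference at CT12 was 0.58 ± 0.23 SE on the log2 scale (limma, adjusted p = 1). Abcb11 read 81.9 and 144 RPKM at CT12 in replicate 1 and 221 and 367 in replicate 2 (0.81 and 0.73), with a fitted difference of 0.77 ± 0.34 SE (limma, adjusted p = 1). At CT0 its replicates disagreed, with 96.0 in the control and 121 in the labelled knockout of replicate 1 but 536 and 218 in replicate 2.

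The remaining enzymes and the carrier did not keep a direction between genotypes at either time, except Cyp27a1 at CT0 and Cyp7a1 at CT12, both lower in the labelled knockout of each replicate (log2 differences -0.17 and -0.62 for Cyp27a1, -0.01 and -1.16 for Cyp7a1). Cyp7a1 read 9.6 RPKM in the control and 14.8 in the labelled knockout of replicate 1 at CT0, but 54.6 and 3.4 in replicate 2. Cyp8b1 read 100 and 150 RPKM in replicate 1 and 481 and 106 in replicate 2 at the same time. Akr1d1 (66.6 and 86.4, then 553 and 215) and Slc10a1 (162 and 231, then 1384 and 784) were likewise higher in the labelled knockout of replicate 1 and lower in that of replicate 2. That labelled knockout of replicate 2 is the liver with the high neutrophil and erythroid sums and with 157 RPKM of Cyp4a12a, whose part in these values was not tested. In replicate 1 alone, without it, the CT0 log2 differences of Cyp7a1, Cyp8b1, Akr1d1, Abcb11 and Slc10a1 were 0.59, 0.58, 0.37, 0.34 and 0.51.

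At CT12 Cyp7a1 read 27.9 in the control and 27.7 in the labelled knockout of replicate 1 and 74.0 and 32.9 in replicate 2. Cyp8b1 read 21.4 and 114 and then 213 and 109, in opposite directions. Cyp27a1 ranged from 144 to 196 RPKM in replicate 1 and from 603 to 927 in replicate 2, Cyp7b1 from 7.2 to 87.2 and from 21.6 to 46.2, and Nr1h4 from 33.7 to 42.9 and from 102 to 179. Between genotypes, 4 of the 10 members had the same sign in both replicates at CT0 and 4 at CT12, and the share of all genes was not counted.

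Between CT0 and CT12 in control livers, all 10 members had the same sign in both replicates, 5 higher and 5 lower at CT12. The share of all genes with the same sign in both replicates was not counted, so this describes the members only. In replicate 1 the CT0 livers held Y-linked transcripts and the CT12 livers did not, which cannot be told apart from time. Cyp7a1 (log2 differences 1.49 and 0.44), Akr1d1, Slc10a1, Nr0b2 and Nr1h4 were higher. Cyp8b1 (-2.21 and -1.18), Hsd3b7 (-0.62 and -1.26) and Abcb11 (-0.23 and -1.27) were lower. Cyp7b1 (-3.00 and -0.08) and Cyp27a1 (-0.08 and -0.12) were lower too, with small differences in replicate 2 and in both replicates, respectively. In labelled knockouts 8 of 10 had the same sign, among them Cyp7a1 (0.88 and 3.10), Hsd3b7 (-0.23 and -0.64) and Abcb11, which was higher at CT12 (0.25 and 0.75). None of these differences was called. Among 40 further bile acid genes tested, 1 was called in the Nr1d1 experiment, Abcg5 over time in controls (log2 difference 1.97 ± 0.23 SE; limma, adjusted p = 0.0172), where 0.353% of all genes tested passed. Leaving out any 1 of the 4 control libraries ended that call.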

How the data were processed

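Polyadenylated RNA of 20 livers was analysed, grouped by the sample titles; 6 libraries of 4C (a chromosome conformation assay) were not analysed here. The authors deposited RPKM, 1 value per transcript and library. The build mm9 and the tools TopHat2, Bowtie and bedtools 2.19.1 are listed in the submitters' processing notes (Bowtie is missing from the list of Nr1d1 replicate 2). What each tool did, which annotation was used, whether counting was stranded, and which reads set the depth: not given in the sources used here. Libraries were joined on 46585 transcripts, and each of 22322 symbols was represented by its best expressed transcript. At most 0.0142% of values were identical in any pair of libraries.

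Whole reads (tolerance 0.05) were recovered for 98.2% of 16629 genes above 0 in the Bmal1 experiment and 82.9% of 18950 in the Nr1d1 experiment. Of the members, only Cyp7a1, Akr1d1 and Nr0b2 were resolved in the Nr1d1 experiment. The resolved genes held 3.38 to 5.62 M reads per Bmal1 library and 8.55 to 23.4 M per Nr1d1 library. RPKM per gene is not a count per library, so the tests used log2(RPKM + 0.5).

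limma 3.58.1 in R 4.3.3 (lmFit, contrasts.fit, eBayes with a trend) was fitted to all 4 groups of an experiment at once, keeping genes whose mean over its libraries reached 0.5 RPKM (11439 and 12738 genes). Tests were two-sided, with Benjamini-Hochberg adjustment over all genes tested and calls at an adjusted p under 0.05. Fold changes are on the log2(RPKM + 0.5) scale, which understates low genes. The method was tested on simulated data with normal noise on the log2 scale, the form limma assumes. These data held no outlying liver, so that case was not tested.

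Same-numbered replicates deviated together in the Nr1d1 experiment (correlations of deviations from group means 0.817 to 0.878 over 12 pairs of groups and numbers), so its model has a replicate block. With 2 livers per group, both numbers of a pair of groups give the same correlation by construction, so these are not 12 separate values. In the Bmal1 experiment they did not (-0.06 to 0.12 over 18), and its model has none. The labels speak of separate mice.

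Alternatives were other pseudocounts, no filter, TMM factors (a trimmed mean of log ratios, computed on RPKM), quantile normalization, sums over transcripts, the block added or removed, only the compared groups, and each library left out. The members, the 42 further genes, the 9 marker lists and the motifs were chosen with earlier results of these data known. Named were all members, Arntl and Nr1d1, every further gene called, and clock factors called at CT12.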

Additional observations from a re-analysis of the deposited data

Results flagged for a closer look

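For 2 genes the change from CT0 to CT12 differed between control livers and livers labelled Bmal1 knockout by the test of that difference. For Hsd3b7 the difference of the changes was 1.43 on the log2 scale (limma, adjusted p = 0.00238): all 3 control livers at CT12 were at 135 RPKM or less, and the other 9 livers at 266 or more. For Abcb11 it was 0.81 (limma, adjusted p = 0.0308): the 3 control livers at CT12 were at 93.9 RPKM or less, and the other 9 at 171 or more.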

How the results depend on the processing

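In the Bmal1 experiment, 962 of 990 alternative values of the members kept their side of the threshold, 23 lost and 5 gained a call. In the Nr1d1 experiment these were 836 of 840, 0 and 4. Direction was compared only where a call was involved, and none reversed there. Differences not called could change sign, such as that of Cyp8b1 between Bmal1 genotypes at CT0 (log2 difference -0.11, and -0.40 to 0.18 leaving out a library). The Hsd3b7 calls, the Abcb11 calls for time and genotype and the Cyp7a1 call over time held under all alternatives run. With a replicate block, the members called for the Bmal1 difference between time courses were 1 in place of 2, as also without the filter; pairing changed no other member call in that experiment than that of Nr1h4 over time. Leaving out single libraries gave 1 to 2 members there and 0 to 1 for time in labelled Bmal1 knockouts. Genes called for Bmal1 genotype at CT0 were 185, 116 without the filter, 108 from the compared groups alone and 82 to 209 leaving out a library. The leave-out ranges were 713 to 1242 at CT12 (1107 in all), 633 to 1370 for time in controls (1239), 48 to 232 for time in labelled knockouts (217; 25 from the compared groups) and 81 to 139 for the difference between time courses (150). In the Nr1d1 experiment, genes called for genotype at CT0 were 0, 1 with TMM, 1 with a replicate block and a term for Y-linked transcripts (chosen after seeing the data), 6 from the compared groups and 0 to 3 leaving out a library. At CT12 they were 5, 1 with a pseudocount of 1, 0 without the filter, 2 with TMM, 2 with quantile normalization, 0 with sums over transcripts, 0 with no replicate block, 10 with the Y-linked term, 62 from the compared groups and 0 to 4 leaving out a library. For time in controls they were 45, 8 without the filter, 0 with no block, 125 from the compared groups (1 member) and 11 to 66 leaving out a library, and the share of higher calls was 48.9%, or 35.8% with TMM; at CT12 between genotypes it was 80% and 50%. For time in labelled knockouts they were 7, 3 with a pseudocount of 0.1, 1 without the filter, 4 with TMM, 4 with quantile normalization, 0 with no block, 2 with the Y-linked term, 226 from the compared groups (3 members) and 1 to 22 leaving out a library; TMM moved the median of all genes there from 0.163 to 0.010. For the difference between time courses the leave-out range was 0 to 4. The causes were not tested. With 2 livers per group and a block, 3 residual degrees of freedom limit the Nr1d1 experiment, and where 1 liver is left in a group it is assumed to vary like the other groups.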
